A study of Mus musculus with 6 samples.

Results

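The polycistron that runs from miR-17 to miR-92a is a set of microRNAs (miRNAs) cut from 1 primary transcript, and its members were followed here in B cell progenitors of fetal liver and adult bone marrow. The samples were 3 sorts of Fr. B/C cells from fetal liver at day 16 of gestation, each pooling the embryos of 1 litter (8 on average). They were set against 3 sorts of the same fraction from adult bone marrow, each pooling the femurs and tibias of 3 female mice. All animals were BALB/c with no genetic change or treatment given in the labels, and the sex of the embryos and the surface markers of the sort are not given in the sources used here. Fr. B/C is the pro-B stage, at which immunoglobulin heavy chain genes are rearranged, and the study as a whole is about Lin28b, which binds RNA in fetal progenitors and keeps let-7 miRNAs low. Each sort was read on 1 one-colour Agilent miRNA array. Members were chosen by name alone: all mouse entries whose stem is miR-17, miR-18a, miR-19a, miR-20a, miR-19b or miR-92a, with either arm (mmu-miR-18a, mmu-miR-18a*, mmu-miR-19a and so on), which gave 11 of 567 mouse miRNAs and 30 of 1672 mouse probes.

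The primary transcript folds into hairpins that Drosha and Dicer cut into mature miRNAs of both arms. The arm that is mostly loaded into Argonaute is called the guide, and its partner, marked here with an asterisk as on the array, the passenger. Myc activates transcription of the cluster, and its miRNAs repress the pro-apoptotic gene Bim (Bcl2l11). Mice without the cluster lose B cells at the step from pro-B to pre-B. Members with 1 seed, the bases 2 to 8 that pair with target mRNAs, share most of their predicted targets.

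The 6 guide arms fall into 4 seed families, and their sequences are shown because both the targets and the probes' specificity depend on them. They are the RefSeq mature sequences on GRCm38.p6, read 5′ to 3′ with the seed in capitals, from 6 hairpins on the plus strand at chr14:115043671-115044506, a span of 836 bases. The miR-17 family has the guides miR-17 and miR-20a, which are alike at 21 of 23 bases.
miR-17: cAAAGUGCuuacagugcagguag
miR-20a: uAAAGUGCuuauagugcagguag
The miR-18 seed is carried in the cluster by miR-18a alone.
miR-18a: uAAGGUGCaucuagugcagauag
The miR-19 family has miR-19a and miR-19b, alike at 22 of 23 bases.
miR-19a: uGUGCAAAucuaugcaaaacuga
miR-19b: uGUGCAAAuccaugcaaaacuga
The last guide arm of the transcript carries a seed that it shares with miR-25 and miR-363.
miR-92a: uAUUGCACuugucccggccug

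The hairpin of miR-18a is shown whole because both of its arms passed the test between the tissues. It lies at chr14:115043851-115043946 (GRCm38.p6, plus strand), and the capitals mark miR-18a on the 5′ side and miR-18a* on the 3′ side.
Mir18: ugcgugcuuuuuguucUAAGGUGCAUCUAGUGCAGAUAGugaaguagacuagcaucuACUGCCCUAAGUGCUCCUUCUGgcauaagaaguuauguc
The scanner files place the probes on mm9, and the distances between the 3′ ends of their targets equalled those between the RefSeq 3′ ends for 17 of 17 names compared, paralogs included. From the 3′ end of miR-17, that of miR-17* lies 36 bases downstream, miR-18a 183, miR-18a* 223, miR-19a* 327, miR-19a 364, miR-20a 499, miR-20a* 534, miR-19b 674 and miR-92a 790 bases.

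One entry that the name brought in does not come from this transcript. The probes named miR-92a* are placed on chromosome X, on the hairpin Mir92-2 of the paralogous miR-106a-363 cluster, whose passenger arm differs from the one made on chromosome 14. Both are shown because the name alone hides the difference, with the stretch read by the probe in capitals for the second.
miR-92a-1-5p, chromosome 14: agguugggauuugucgcaaugcu
miR-92a-2-5p, chromosome X: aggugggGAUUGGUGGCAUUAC
The mature guides miR-19b and miR-92a are identical in sequence whether they come from chromosome 14 or from X, so their signal cannot be assigned to 1 of the transcripts. MiR-17, miR-18a, miR-19a and miR-20a have no such identical copy among the RefSeq matures.

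Levels are given as the log2 of the scaled signal of the brightest probe of each miRNA, with a common floor at 4.04, below which values have no order. Levels of different probes cannot be set against each other, so only differences between tissues within a probe, or changes in the gap between probes, are read. A probe was well above background on an array where over 50 percent of its spots were. On fetal liver replicate 2, 5.32 percent of mouse probes were well above background, against 13.8 and 17.9 percent on the other fetal liver arrays and 15.7 to 19.8 percent on the bone marrow arrays. Its negative controls had an SD of 12.1, and those of the 5 remaining arrays 2.65 to 4.13. All arrays lay on 1 slide with 1 scan time, and the fetal liver arrays lay in a row of their own, so row and tissue cannot be told apart. The 3 sorts a group limit the precision of every difference, and sorts are the only replicates. A signal per fixed amount of total RNA cannot tell more cells with a miRNA from more of it per cell.

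Both arms of the miR-18a hairpin were higher in fetal liver Fr. B/C cells. MiR-18a, whose reported targets include the DNA damage kinase gene Atm, had levels of 7.37, 7.37 and 8.47 on the fetal liver arrays, against 6.23, 5.89 and 5.90 on the bone marrow arrays. Its lowest fetal value lay above its highest bone marrow value. It averaged 7.73 ± 0.64 in fetal liver and 6.01 ± 0.19 in bone marrow (SD, n = 3 each). The difference of 1.73 ± 0.35 on the log2 scale (SE), a 3.31-fold rise, passed the test (limma, Benjamini-Hochberg adjusted p = 0.0130, 95% interval 0.90 to 2.55). The probe passed the background rule on all 6 arrays, and its 10 spots varied by 5.24 to 8.55 percent (CV) within an array. Before scaling, its signal was 107, 91.1 and 371 in fetal liver and 83.7, 96.6 and 60.2 in bone marrow, so the groups overlapped there by 1 array.

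The passenger arm miR-18a* had levels of 6.03, 6.95 and 5.65 in fetal liver, against 5.05, 4.61 and 4.61 in bone marrow, again with no overlap. It averaged 6.21 ± 0.67 in fetal liver and 4.76 ± 0.25 in bone marrow (SD, n = 3 each). The rise was 2.73-fold (1.45 ± 0.37 on the log2 scale, limma, Benjamini-Hochberg adjusted p = 0.0316, 95% interval 0.57 to 2.33). The order of the fetal arrays was not that of the guide arm: replicate 3 was the highest fetal array for miR-18a and the lowest for miR-18a*. When bone marrow replicate 2 or bone marrow replicate 3 was left out, neither arm passed: the adjusted p of miR-18a was 0.0567 and 0.0643 and that of miR-18a* was 0.110 and 0.123 (limma). MiR-18a* also did not pass without fetal liver replicate 1 or bone marrow replicate 1 (limma adjusted p = 0.0587 and 0.0651).

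**Figure D1:**
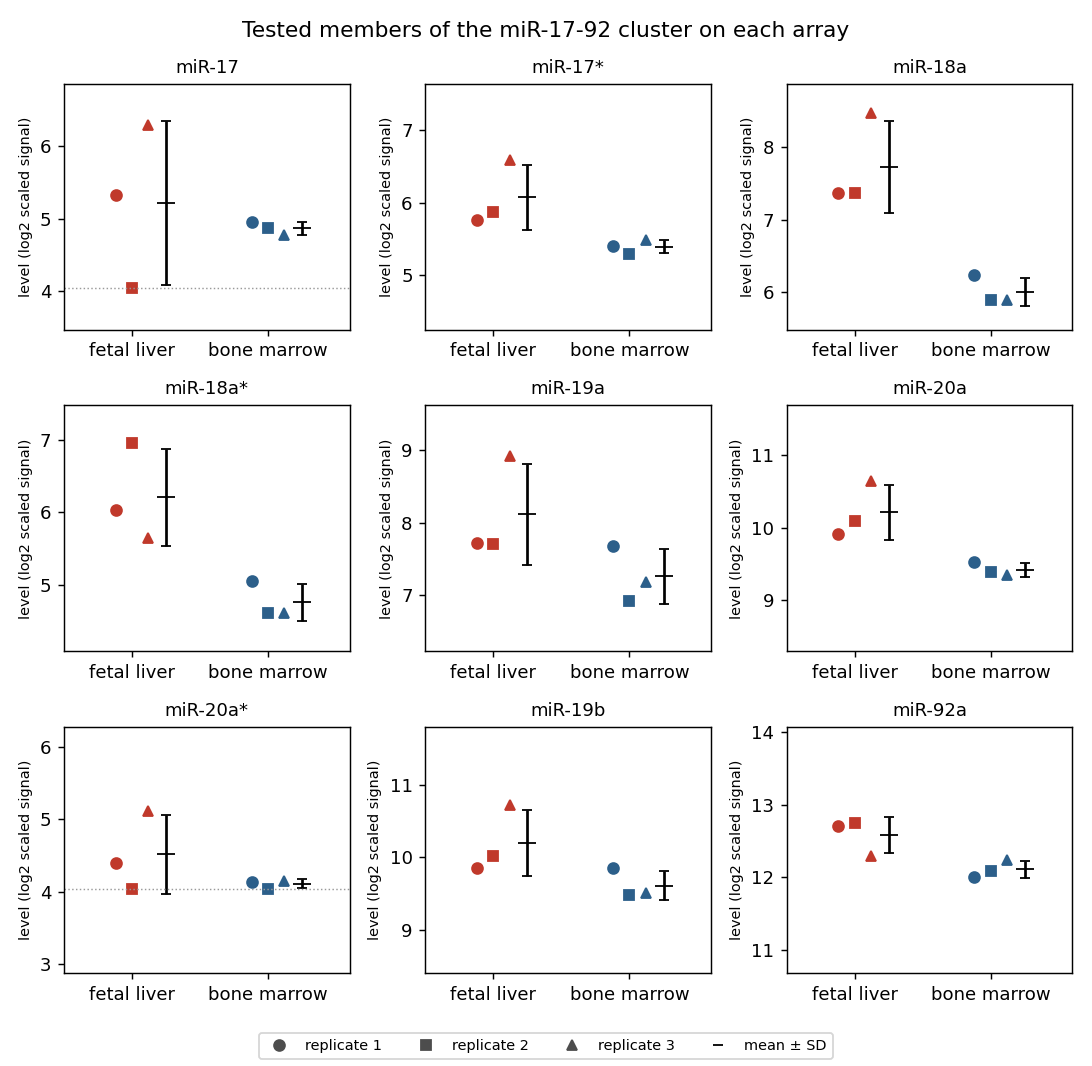
Levels (log2 scaled signal, vertical axis) of the 9 tested members on the fetal liver (red) and bone marrow (blue) arrays, with symbols for the replicates, bars for mean ± SD (n = 3) and a dotted line at the floor of 4.04. Each panel spans the same log2 range, and both arms of miR-18a show the widest gaps between tissues, while miR-17 and miR-20a* overlap.

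The array carries nested probes for each arm, which end at the same 3′ base and differ in how far they reach toward the 5′ end. For miR-18a, the probe reading 19 bases and the one reading 18 gave differences of 1.73 and 1.74 (log2), so both lengths showed the same gap between tissues. When each probe was fitted as its own feature, an analysis chosen after seeing the data, both passed (limma, Benjamini-Hochberg adjusted p = 0.0172 and 0.0323). The 19 bases read by the brighter probe are printed here in capitals beside the chromosome X paralog miR-18b, since the same seed sits in both.
miR-18a: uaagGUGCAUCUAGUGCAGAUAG
miR-18b: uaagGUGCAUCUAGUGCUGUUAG
Over that stretch miR-18a differs from miR-18b by 2 bases and from miR-20a by 3, and none of 1678 other mouse matures came within 1 mismatch. MiR-18b itself was well above background on 0 of 6 arrays and at the floor on each.

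For miR-18a* the 4 nested probes did not keep a constant ratio across arrays. The probes of 19, 18, 17 and 16 bases differed between tissues by 1.45, 1.23, 0.96 and 0.46 (log2). The 3 shorter probes lay at the floor on 2, 3 and 3 arrays. For the 18-base probe these were bone marrow replicates 2 and 3. For the probes of 17 and 16 bases they were the same arrays and fetal liver replicate 3. The size of these differences therefore depends on the floor in both tissues. Only the longest passed when each probe was a feature of its own (limma, Benjamini-Hochberg adjusted p = 0.0392, against 0.269 for the probe of 18 bases). The probes of 17 and 16 bases were well above background on 3 of 6 arrays and were not tested. Relative to the longest probe, the signal of the 18-base probe was 72.8, 82.2 and 33.7 percent on fetal liver arrays 1 to 3, against 70.7, 66.0 and 61.2 percent on the bone marrow arrays. Fetal liver replicate 3 held the lowest of these ratios. For miR-18a, by comparison, the ratio of the brighter to the dimmer probe stayed between 1.76 and 2.35 in fetal liver and between 2.01 and 2.10 in bone marrow.

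**Figure D2:**
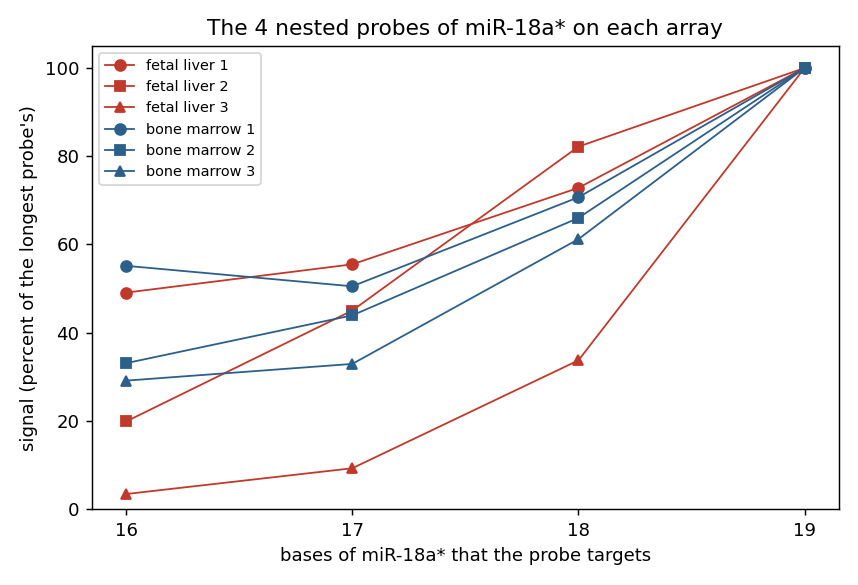
Signal of the nested miR-18a* probes before scaling, in percent of the 19-base probe on the same array (vertical axis), by the bases the probe targets (horizontal axis), with 1 line per fetal liver (red) or bone marrow (blue) array. Fetal liver replicate 3 falls to 33.7 percent at 18 bases, below the other 5 arrays; the points at 17 and 16 bases come from probes well above background on 3 of 6 arrays and carry no comparison.

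The first hairpin of the transcript behaved less uniformly. MiR-17 had levels of 5.33, 4.04 and 6.29 in fetal liver, against 4.95, 4.87 and 4.78 in bone marrow. The second fetal value is the floor, on the array with the weakest signal over background, and the groups overlapped. The difference of 0.36 ± 0.54 (log2, SE) did not pass (limma, Benjamini-Hochberg adjusted p = 0.651), and its 95% interval from -0.93 to 1.64 includes a rise nearly as large as that of miR-18a and a fall. Without fetal liver replicate 3 it turned to -0.18, and without fetal liver replicate 2 it was 0.95. The miR-17 probe reads only 14 bases, and over these it differs from miR-106a and from miR-20a by 1 base each. A second, 13-base probe is annotated to both miR-17 and miR-106a.

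Its passenger miR-17* had levels of 5.76, 5.87 and 6.59 in fetal liver, against 5.40, 5.30 and 5.48 in bone marrow, and it was not well above background on fetal liver replicate 2. The groups did not overlap, but the spread among fetal arrays was wide. The difference of 0.68 ± 0.27 (log2, SE) did not pass (limma, Benjamini-Hochberg adjusted p = 0.139).

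The remaining guide arms had higher fetal means as processed here without passing the test, but miR-19b and miR-92a differed by -0.18 and -0.29 with no scaling and by -0.03 and -0.14 with scaling to the guide arms, and miR-92a by -0.12 after quantile normalisation. MiR-19a had levels of 7.71, 7.71 and 8.92 in fetal liver, against 7.67, 6.92 and 7.18 in bone marrow, a difference of 0.86 ± 0.40 (SE, limma adjusted p = 0.185, 95% interval -0.09 to 1.81). MiR-19b had 9.86, 10.02 and 10.73 in fetal liver, against 9.85, 9.48 and 9.50 in bone marrow, a difference of 0.59 ± 0.29 (SE, limma adjusted p = 0.203, 95% interval -0.10 to 1.28). For both, the lowest fetal value and bone marrow replicate 1 nearly met, and fetal liver replicate 3 was the highest array. Over the 21 bases of its probe, miR-19a differs from miR-19b by 1 base; how much signal their probes share was not tested.

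MiR-20a, the seed mate of miR-17, had levels of 9.91, 10.09 and 10.64 in fetal liver, against 9.52, 9.39 and 9.34 in bone marrow. The groups did not overlap. The difference was 0.80 ± 0.25 (log2, SE), or 1.74-fold, with a limma adjusted p of 0.0659 over all tested miRNAs and a 95% interval of 0.20 to 1.40. MiR-20a passed where only miRNAs well above background on all 6 arrays were tested (limma adjusted p = 0.0299) and with an intensity trend (limma adjusted p = 0.0249), and in 0 of the other 21 alternatives. Its difference was 0.03 with no scaling (limma adjusted p = 0.981), 0.18 with scaling to the guide arms (0.668) and 0.47 with the 75th percentile over all mouse probes (0.650). Over the 19 bases of its probe, miR-20a differs from miR-17 and from miR-20b by 1 base each. How much signal these probes share was not tested.

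MiR-92a, the last arm on the transcript, had levels of 12.70, 12.75 and 12.29 in fetal liver, against 12.00, 12.09 and 12.24 in bone marrow. The lowest fetal and highest bone marrow values nearly met, and here fetal liver replicate 3 was the lowest fetal array rather than the highest. The difference of 0.47 ± 0.22 (log2, SE) did not pass (limma adjusted p = 0.185, 95% interval -0.05 to 1.00).

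The other passenger arms were at or near background. MiR-20a* had levels of 4.40, 4.04 and 5.11 in fetal liver, against 4.14, 4.04 and 4.15 in bone marrow, where 4.04 is the floor, and its difference of 0.41 ± 0.30 did not pass (limma adjusted p = 0.377). MiR-19a*, and the chromosome X arm named miR-92a*, were well above background on 0 of 6 arrays on each of their 4 probes and at the floor on all, so neither was tested. No sequence for miR-19a* is printed.

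Of the 11 members, 9 could be tested and 2 were called, both higher in fetal liver, beside 21.5 percent of all 135 tested miRNAs called in either direction and 10.4 percent called higher. Counting by arm, 1 of 6 tested guides and 1 of 3 tested passengers passed. At an unadjusted p under 0.05 there were 4 of 9, beside 32.6 percent of all tested miRNAs. The groups did not overlap for 7 of the 9, beside 40.7 percent of all tested miRNAs and 22.2 percent that did so on the higher side. That holds for scaled levels. Before scaling, miR-18a* alone among the tested members had groups that did not overlap. MiR-20a, for example, then had 621, 600 and 1676 in fetal liver, against 817, 1090 and 654 in bone marrow. The share of all tested miRNAs before scaling was not counted. All 9 differences lay above 0 with a median of 0.68, beside 61.5 percent of all tested miRNAs and a median of 0.25, but 5 of 9 lay above 0 with no scaling between arrays and with scaling to the guide arms other than miR-18a, and 8 of 9 after quantile normalisation or in the deposited table. Of all 135 tested, 34 lay above 0 with no scaling, 45 with scaling to the guide arms, 69 after quantile normalisation and 70 in the deposited table. The members were measured on the same arrays and come largely from 1 transcript, so they are not independent of each other.

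**Figure D3:**
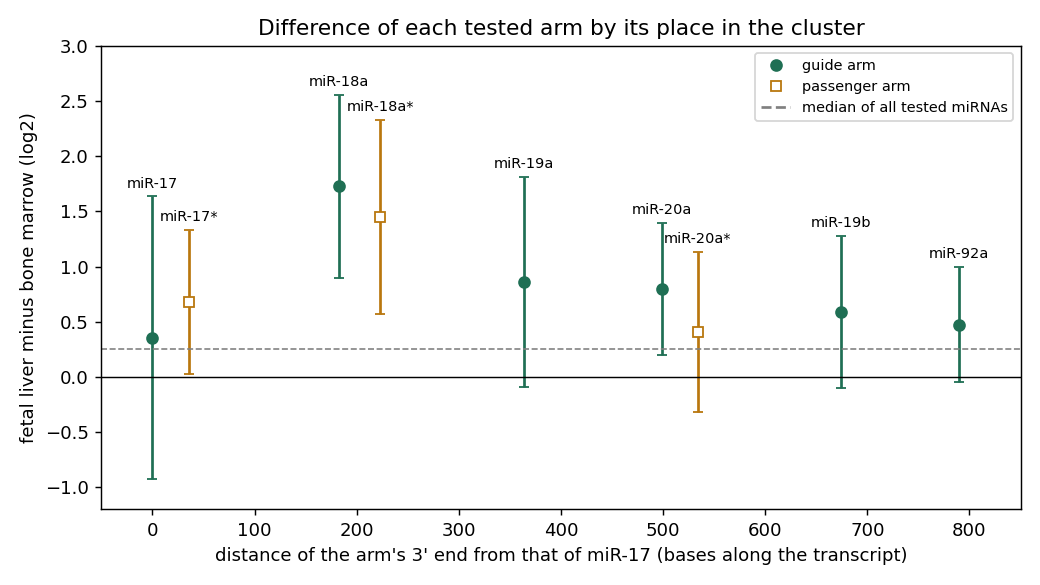
Difference in level, fetal liver minus bone marrow (log2, vertical axis, with its 95% interval from limma, n = 3 each), of each tested arm by the distance of its 3′ end from that of miR-17 (bases, horizontal axis). Both arms of miR-18a, at 183 and 223 bases, have intervals that lie above the median of all tested miRNAs, drawn as a dashed line at 0.25.

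Because the guides come from 1 transcript, each was also set against the mean of the other 5 on its own array, in which the scaling of the array cancels except where a value lies at the floor, as miR-17 does on fetal liver replicate 2. The value has a sign set by the probes, and only its change between tissues is read. For miR-18a it was -1.74, -1.55 and -1.31 in fetal liver, against -2.57, -2.66 and -2.71 in bone marrow. As processed here, it was the one guide whose relative levels did not overlap between tissues. The difference of 1.11 (log2) had a two-sided exact permutation p of 0.1, the smallest that 3 against 3 arrays allow, and 0.6 after Benjamini-Hochberg adjustment over the 6 guides, so this test could not pass at any size of effect. With miR-17 left out of the mean it was 1.05, and with no scaling 1.06. It was 1.32 after quantile normalisation and 0.92 in the deposited table. With normexp it fell to 0.57, with an exact permutation p of 0.2 rather than the smallest possible. Over 19 alternatives it thus kept its sign but ran from 0.57 to 1.32. With miR-18a fitted in limma on arrays scaled to the other guide arms, the difference of 1.11 passed (limma, Benjamini-Hochberg adjusted p = 0.0220 over all tested miRNAs), while that of miR-18a* was 0.84 with an adjusted p of 0.319.

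The relative levels of the other guides overlapped between the tissues as processed here. MiR-19b also reached the smallest p of 0.1 (exact permutation) with no scaling, the 75th percentile over all mouse probes, scaling to the guide arms, a doubled floor, miR-17 left out of the mean or fetal liver replicate 2 left out. MiR-92a did so after quantile normalisation and in the deposited table, miR-20a in the deposited table, and miR-17 there and with fetal liver replicate 3 left out. As reported, relative levels differed by -0.53 for miR-17, 0.07 for miR-19a, -0.0037 for miR-20a, -0.25 for miR-19b and -0.39 for miR-92a (two-sided exact permutation p = 0.4, 0.7, 1, 0.2 and 0.7). For miR-17 and miR-92a a single array stood apart. The relative level of miR-17 was -4.18, -5.55 and -3.92 in fetal liver, against -4.10, -3.88 and -4.05 in bone marrow, and its difference was -0.034 without fetal liver replicate 2, where it is at the floor, and -0.26 with no scaling. That of miR-92a was 4.67, 4.91 and 3.28 in fetal liver, against 4.35, 4.78 and 4.90 in bone marrow, and without fetal liver replicate 3 its difference was 0.11. The mean of the 6 guides was 8.81, 8.66 and 9.56 in fetal liver, against 8.37, 8.11 and 8.16 in bone marrow, with no overlap. Unlike the relative levels, this mean depends on the scaling, and it counts miR-17 at the floor on fetal liver replicate 2. The scale factors were 1.55, 1.81 and 0.95 on the fetal liver arrays and 0.90, 0.61 and 0.99 on the bone marrow arrays.

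**Figure D4:**
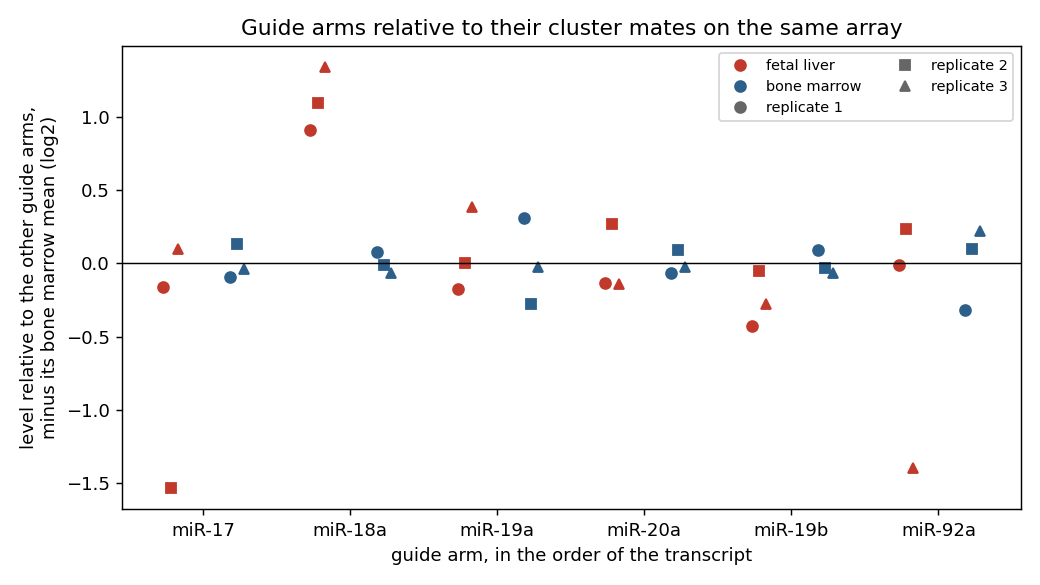
Level of each guide arm minus the mean of the other 5 on the same array, with its bone marrow mean set to 0 (log2, vertical axis), for the fetal liver (red) and bone marrow (blue) arrays. The fetal points of miR-18a lie about its difference of 1.11 above 0 with no overlap, while fetal liver replicate 2 is low for miR-17 and replicate 3 is low for miR-92a.

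The arms of 1 hairpin can also be compared with each other on each array. The level of miR-18a* minus that of miR-18a was -1.34, -0.41 and -2.82 in fetal liver, against -1.18, -1.28 and -1.29 in bone marrow. Bone marrow arrays lay close together, and the fetal ones lay on both sides of them. The difference of -0.28 did not pass (two-sided exact permutation p = 0.7, adjusted p = 1 over 3 hairpins), and without fetal liver replicate 3 it was 0.37. For miR-17* minus miR-17 the difference was 0.33 (exact permutation p = 1), but neither arm was well above background on fetal liver replicate 2, and without that array it was -0.16, with means of 0.36 in fetal liver and 0.52 in bone marrow. For miR-20a* minus miR-20a it was -0.39 with no overlap (exact permutation p = 0.1, the smallest possible, adjusted p = 0.3), with miR-20a* at the floor on 1 array of each tissue.

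Of the paralogs with the same seeds, 0 of the 5 tested were called by limma, beside 21.5 percent of all tested miRNAs. At an unadjusted p under 0.05 there were 2 of 5, miR-20b and miR-93, beside 32.6 percent. The same 2 had groups that did not overlap, beside 40.7 percent. Their differences were smaller than that of miR-18a and larger than that of miR-17. MiR-20b, of the chromosome X cluster, had 9.08, 9.22 and 9.78 in fetal liver, against 8.81, 8.62 and 8.58 in bone marrow, a difference of 0.69 ± 0.25 (SE, limma adjusted p = 0.104). Over the 20 bases of its probe, miR-20b differs from miR-20a by 1 base, and how much signal their probes share was not tested. MiR-93, of the chromosome 5 cluster hosted by Mcm7, differed by 0.59 ± 0.21 (SE, limma adjusted p = 0.103). MiR-106a, miR-106b and miR-25 differed by 0.25, 0.23 and 0.26 (limma adjusted p = 0.741, 0.496 and 0.426). MiR-106a had 5.30, 4.04 and 6.29 in fetal liver, against 5.10, 4.92 and 4.87 in bone marrow, a profile close to that of miR-17, and their probes read stretches that differ by 1 base.

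Some miRNAs on lists named for cell types of these organs differed between the tissues, and others did not. Each summed signal below counts an entry below the floor of 16.5 at that floor. Of the erythroid list, miR-451, which is made in maturing red cells, was higher in fetal liver by 2.41 ± 0.31 (log2, SE, limma adjusted p = 0.00252), miR-486 was well above background on 2 arrays of each tissue and not tested, and miR-144 was well above background on 0 of 6 arrays. The summed signal of the 3 erythroid miRNAs was 524 to 779 in fetal liver and 121 to 184 in bone marrow. The 4 entries of the myeloid list, led by the granulocyte miRNA miR-223 with 6.24 ± 0.48 in fetal liver and 8.24 ± 0.48 in bone marrow (log2, SD, n = 3 each, limma adjusted p = 0.00786), summed to 116 to 167 in fetal liver and 286 to 491 in bone marrow, with miR-146b and miR-146b* well above background on 0 arrays. MiR-511, the remaining myeloid entry, went the other way, with 4.62, 6.14 and 4.04 in fetal liver and the floor on all 3 bone marrow arrays. It was well above background on 1 array of each tissue and not tested. Hepatocyte entries, 5 in all, summed to 82.3 to 123 in fetal liver and 107 to 113 in bone marrow, where 82.3 is the sum with all 5 at the floor, with miR-192, miR-194 and miR-148a* well above background on 0 arrays and the defining miR-122 on 1 fetal liver array. MiR-148a, the tested hepatocyte entry, was well above background on 2 fetal liver and 3 bone marrow arrays. It differed by -0.47 without passing (limma adjusted p = 0.474). All 8 stromal entries were well above background on 0 arrays. The 10 megakaryocyte or stem entries summed to 179 to 208 in fetal liver and 238 to 272 in bone marrow, where 165 is the sum with all at the floor, and 6 of them, miR-10b and one arm of miR-126 among them, were well above background on 0 arrays. Of that list, miR-125b-5p was lower in fetal liver, where it was well above background on 0 arrays (difference -1.81, limma adjusted p = 0.00216), while miR-10a, miR-196b and miR-126-3p differed by -0.94, -0.56 and -0.15 without passing (limma adjusted p = 0.165, 0.158 and 0.788). MiR-126-3p was well above background on 2 fetal liver and 3 bone marrow arrays. The 9 lymphoid entries, 7 of them tested and the passengers miR-150* and miR-181a-2* well above background on 0 arrays, summed to 1051 to 1444 in fetal liver and 1003 to 1361 in bone marrow. Of these, miR-181a was lower in fetal liver (-1.25, limma adjusted p = 0.0252) and miR-155 differed by 0.28 without passing (limma adjusted p = 0.377). MiR-142-3p, miR-181a-1* and miR-181b differed by 0.42, 0.30 and 0.14 without passing (limma adjusted p = 0.463, 0.523 and 0.692). MiR-142-5p and miR-150 differed by -0.46 and -0.92, also without passing (limma adjusted p = 0.540 and 0.324). Whether other cell types had a part in the miR-18a result was not tested.

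The miRNAs outside the cluster and its paralogs whose levels ran most alike were chosen by Pearson's r over the 6 arrays, among 77 tested miRNAs off the floor on every array. To the mean of the guide arms these were miR-107 (r = 0.95), miR-130b (0.93), miR-103 (0.92), miR-130a (0.91) and miR-451 (0.89). To miR-18a they were miR-107 (r = 0.99), miR-103 (0.97), miR-451 (0.96), miR-301a (0.92) and miR-130a (0.90). These values describe arrays that fall into the tissues compared and share their scaling, and carry no test. Within the cluster, r was 0.99 between miR-18a and miR-20a and 0.99 between miR-19a and miR-19b, but 0.68 between miR-18a and miR-18a* and 0.19 between miR-92a and miR-19a.

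The difference of miR-18a kept its sign under each of 23 other ways of processing, from 0.96 to 1.91, and passed in 17 of them. Beside the fits that left out bone marrow replicate 2 or 3, its call was lost with no scaling (limma adjusted p = 0.189), with normexp (0.288), on the second-brightest probe alone (0.102) and with no filter on dim miRNAs (0.212). That of miR-18a* lay between 0.60 and 1.73 and passed in 8 of 23. Under the 5 other scalings miR-18a was called in 4 and miR-18a* in 0. Other scalings moved the median of all tested miRNAs by -0.22 to -0.75 (log2), and relative to that median miR-18a lay 1.48 higher as reported and 1.31 to 1.74 higher under those scalings. With them the calls over all tested miRNAs leaned down: 14 of 29 calls were higher in fetal liver as reported, against 4 of 24 with no scaling and 4 of 25 with scaling to the guide arms.

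**Figure D5:**
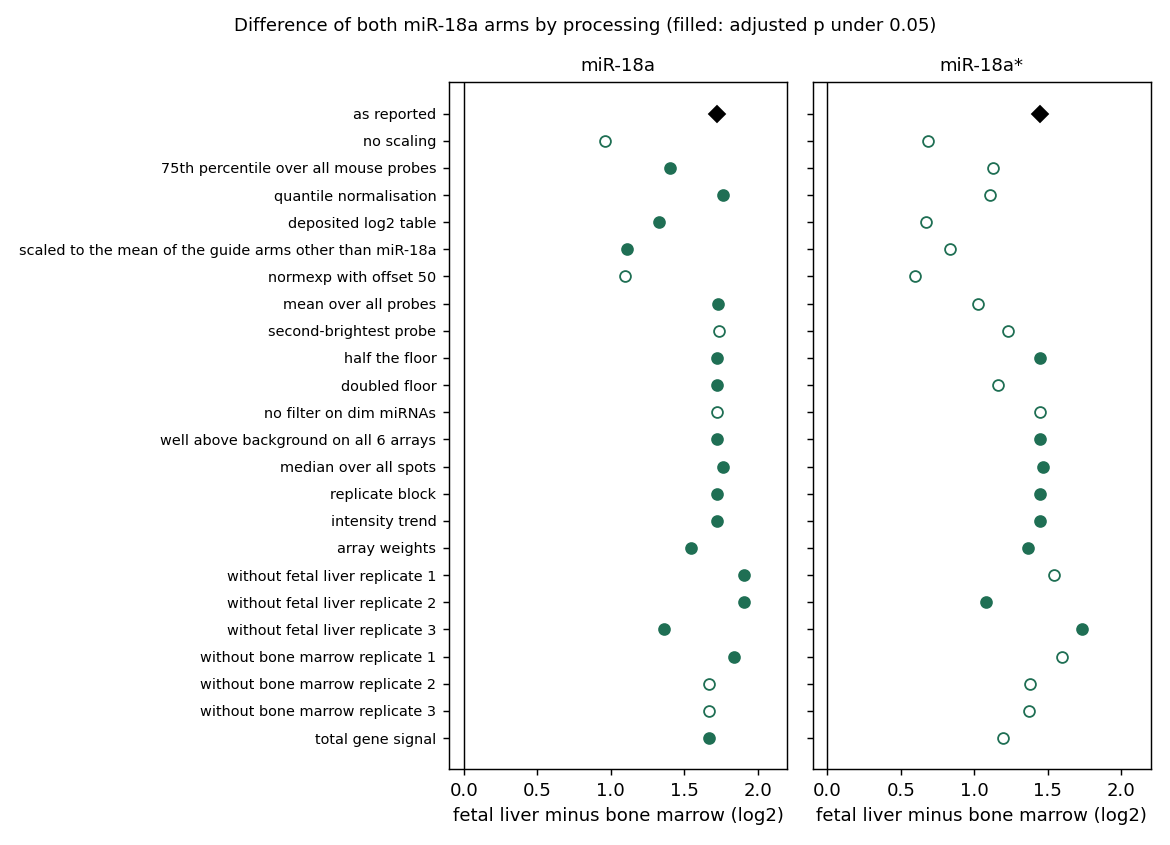
Difference in level of miR-18a (left) and miR-18a* (right), fetal liver minus bone marrow (log2, horizontal axis), under each way of processing (rows), with filled symbols where the limma adjusted p was under 0.05 and a diamond for the reported value. All points lie right of 0, and more are filled for miR-18a than for miR-18a*.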

How the data were processed

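Total RNA from TRIzol was end-labelled with Cy3, per the labels' protocols. The deposited scanner tables hold spot intensity on a linear scale, which, per the file headers, Agilent Feature Extraction 9.5.3.1 had corrected for background but not normalised between arrays. A second deposited file gives log2 values on a common distribution; how its background was corrected is not stated, and it served as an alternative. Flags such as well above background are deposited scores of 0 or 1.

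Spots of a probe were averaged without outliers. The scaling set the 75th percentile of the 82 probes that passed the background rule on every array to a common value, and signals were floored at 16.5 (the median 5th percentile of signals well above background) and put on the log2 scale. The brightest probe stood for each miRNA. Those well above background on all 3 arrays of a group, 135 (23.8 percent), were tested in limma 3.58.1 under R 4.3.3 (lmFit, eBayes) with Benjamini-Hochberg adjustment over all of them, and called at an adjusted p under 0.05. Relative levels and arm ratios used two-sided exact permutation tests. Intervals are limma's, unadjusted. The 0 saturated member spots needed no bound. RefSeq gave sequences for 10 of 11 members. Figures were drawn with matplotlib 3.10.9.

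All members and probes were named, with the tested paralogs, the defining miRNAs of other cell types, and the 5 miRNAs most alike to the guide mean and to miR-18a. The members, lists and tests were chosen with earlier results of these data known. Alternatives covered scalings, normexp with an offset of 50, probe rules, floors, filters, the deposited table, array weights, an intensity trend, a replicate block and each array left out in turn. Fitting each probe, Feature Extraction's total gene signal, leaving miR-17 out of the mean of the other arms, and the gap between the miR-17 arms without fetal liver replicate 2 were chosen after seeing the data.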

Additional observations from a re-analysis of the deposited data

How the results depend on the processing

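Of the members, 2 were called as reported. The count was 0 with no scaling, with normexp, with the second-brightest probe and with no filter, and 1 with the 75th percentile over all mouse probes, quantile normalisation, the deposited table, scaling to the guide arms, the mean over probes, a doubled floor and total gene signal; it was 3 with each probe as a feature, with all 6 arrays required to be well above background and with an intensity trend. Leaving out each array gave 0 to 2. Over all tested miRNAs, 29 were called as reported, 9 with normexp, 13 with the second-brightest probe, 12 with no filter, 19 where all 6 arrays had to be well above background, 49 with each probe as a feature, and 14 to 43 when 1 array was left out. There were 20 with the mean over probes, 26 with a doubled floor, 23 with total gene signal and 33 with an intensity trend. The median difference of the members, 0.68, was 0.0197 with no scaling, 0.0668 with scaling to the guide arms and 0.46 to 0.86 without 1 array. Relative to the median of all tested miRNAs it was 0.43 as reported, 0.52 with no scaling and 0.40 with scaling to the guide arms. That relative value was 0.17 with array weights and 0.29 with normexp. It was 0.24 without fetal liver replicate 3 and 0.75 without fetal liver replicate 1. Calls higher in fetal liver were 6 of 21 with the 75th percentile over all mouse probes, 9 of 26 with quantile normalisation and 11 of 29 in the deposited table.

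Some directions turned, and the cause was not tested. The relative level of miR-20a, -0.0037, was 0.0556 with quantile normalisation, 0.141 in the deposited table, 0.103 with normexp, 0.0256 with total gene signal and -0.14 to 0.0661 without 1 array. That of miR-19a, 0.07, was -0.0149 with the second-brightest probe, -0.0363 with miR-17 left out of the mean and -0.0852 to 0.23 without 1 array. Without 1 array, that of miR-92a ran from -0.70 to 0.11, and miR-18a* minus miR-18a from -0.83 to 0.37. With no scaling, miR-17 differed by -0.136, miR-17* by -0.0821, miR-19b by -0.175 and miR-92a by -0.291; with scaling to the guide arms, miR-17 by -0.238, miR-19b by -0.0263, miR-20a* by -0.157 and miR-92a by -0.142. MiR-92a was at -0.121 with quantile normalisation, miR-20a* at -0.0394 in the deposited table, and miR-17 at -0.18 to 0.95 without 1 array.

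Deviations of same-numbered sorts from their group means correlated at r = 0.17, -0.12 and -0.24 over tested miRNAs. For differently numbered sorts r ran from -0.33 to 0.32. With 3 sorts a group these values cannot decide whether the numbers pair the sorts. With the replicate number as a block, 2 members and 23 of all tested miRNAs were called, with limma adjusted p = 0.0214 for miR-18a and 0.0386 for miR-18a*, and no call of a member changed. Fetal liver replicate 2, with the weakest signal over background, limits what can be said of miR-17, miR-17* and miR-20a*, which were not well above background there.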

Other observations

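Some arms of the paralogous clusters were too dim to be tested. MiR-363, the seed mate of miR-92a from the chromosome X cluster, had levels of 4.73, 5.02 and 5.53 in fetal liver and lay at the floor of 4.04 on all 3 bone marrow arrays; it was well above background on 2 fetal liver arrays and 1 bone marrow array. The passenger arm miR-106b*, from the chromosome 5 cluster, had levels of 4.77, 4.60 and 4.90 in fetal liver, against 4.07, 4.04 and 4.04 in bone marrow, and was well above background on 2 arrays of each tissue. No fold is given for either, since the bone marrow values lie at or next to the floor.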
